A study of Mus musculus with 6 samples.

Results

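H3K4me3 peaks of a stretch of mouse chromosome 11 around Etv4 were compared between a pre-B cell line, 230-238, and a pro-T cell line, Scid.adh.2C2. The stretch was taken as chr11:101600000-102300000 (GRCm38), and every peak of both deposited lists that overlapped it was a member, which gave 37 of the 19604 peaks of 230-238 and 19 of the 15513 peaks of Scid.adh.2C2, or 56 of 35117 in all. It was chosen from these same lists because its peaks near Etv4 were found in 230-238 only, so the difference in peak number, the fold enrichments and the promoter counts given for the stretch are descriptions without a test. The rule names 7 protein-coding genes: Etv4, Meox1, Sost, Dusp3, Cd300lg, Mpp2 and Mpp3.

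230-238 is a mouse B-cell progenitor line transformed by Abelson virus, and Scid.adh.2C2 is a mouse T-cell progenitor line derived from a pro-T tumor of CB17 mice carrying the scid allele of Prkdc. Neither line received a treatment, and each group is 1 transformed line and not a set of animals or primary cells. In each line 2 H3K4me3 ChIP libraries and 1 input library were sequenced, and the authors combined them into 1 peak list per line. The lists hold no value per replicate and no read count, so no spread between replicates, no depth and no p-value between the lines could be given.

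H3K4me3, trimethylation of lysine 4 on histone H3, is deposited around the transcription start sites (TSSs) of active and poised genes, most strongly at CpG-rich promoters, and is weak or absent at promoters that are silenced or never engaged. Etv4 encodes an ETS transcription factor of the PEA3 group, together with Etv1 and Etv5, and the group is known as a readout of FGF and ERK signaling. Its neighbors on chromosome 11 have unrelated known roles, among them sclerostin (Sost), a secreted WNT antagonist of bone, the ERK and JNK phosphatase Dusp3, the membrane-associated guanylate kinases Mpp2 and Mpp3, the somite homeobox factor Meox1 and the immunoglobulin-family receptor Cd300lg.

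The reference promoters below each overlap a 230-238 peak of the stretch, in whole or in part. They are RefSeq promoters on GRCm38.p6, each 300 bases long, running 5′ to 3′ along the gene from 250 bases before the start to 50 bases after it. CpG dinucleotides are in capitals, since CpG density is the sequence property most closely tied to H3K4me3 and was not used to choose the peaks. Of the 22 protein-coding genes whose promoters lie in the stretch, 14 had an entry, in 16 rows, and no entry was matched for Rdm1, Etv4, Meox1, Mpp3, Cd300lg, Lsm12, BC030867 and Tmub2. Dhx8, which encodes a splicing helicase, stands for the borders, where both lines had a peak. Its printed promoter overlaps 2 peaks of each line at its ends and lies between them in its middle part. Between the borders, the printed promoters of Dusp3, Mpp2, Tmem101, Ppy and Sost lay under a peak in 230-238 only. A further Mpp2 row, under no peak in either line, is not printed. A 300-base window around the summit of the Sost peak is printed last, on the strand of the gene, because that summit lies far from the Sost start.
Dhx8 promoter, chr11:101732706-101733005, plus strand: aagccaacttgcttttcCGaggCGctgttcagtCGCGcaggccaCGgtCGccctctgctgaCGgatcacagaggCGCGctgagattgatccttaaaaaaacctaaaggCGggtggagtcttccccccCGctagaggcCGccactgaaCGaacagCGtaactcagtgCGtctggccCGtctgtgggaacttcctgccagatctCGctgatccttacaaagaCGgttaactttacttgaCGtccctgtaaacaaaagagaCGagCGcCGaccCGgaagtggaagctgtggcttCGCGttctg
Dusp3 promoter, chr11:101984742-101985041, minus strand: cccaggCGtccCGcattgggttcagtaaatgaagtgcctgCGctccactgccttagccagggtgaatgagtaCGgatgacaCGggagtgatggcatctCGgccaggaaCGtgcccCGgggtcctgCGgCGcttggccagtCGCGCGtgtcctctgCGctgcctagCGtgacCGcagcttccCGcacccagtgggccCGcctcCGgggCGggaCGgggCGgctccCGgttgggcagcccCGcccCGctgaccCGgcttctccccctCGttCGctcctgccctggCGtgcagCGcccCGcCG
Mpp2 promoter, chr11:102088466-102088765, minus strand: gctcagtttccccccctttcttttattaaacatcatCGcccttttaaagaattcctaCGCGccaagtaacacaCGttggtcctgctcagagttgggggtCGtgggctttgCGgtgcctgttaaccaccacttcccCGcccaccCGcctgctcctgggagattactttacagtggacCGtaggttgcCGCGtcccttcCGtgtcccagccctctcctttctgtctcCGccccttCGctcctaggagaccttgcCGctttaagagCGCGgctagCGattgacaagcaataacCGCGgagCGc
Tmem101 promoter, chr11:102156358-102156657, minus strand: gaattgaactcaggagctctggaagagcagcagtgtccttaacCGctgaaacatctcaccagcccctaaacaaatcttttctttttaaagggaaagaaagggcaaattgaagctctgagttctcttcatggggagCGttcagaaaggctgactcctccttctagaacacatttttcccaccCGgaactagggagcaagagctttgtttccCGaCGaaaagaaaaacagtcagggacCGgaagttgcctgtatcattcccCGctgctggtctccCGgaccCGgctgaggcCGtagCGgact
Ppy promoter, chr11:102101270-102101569, minus strand: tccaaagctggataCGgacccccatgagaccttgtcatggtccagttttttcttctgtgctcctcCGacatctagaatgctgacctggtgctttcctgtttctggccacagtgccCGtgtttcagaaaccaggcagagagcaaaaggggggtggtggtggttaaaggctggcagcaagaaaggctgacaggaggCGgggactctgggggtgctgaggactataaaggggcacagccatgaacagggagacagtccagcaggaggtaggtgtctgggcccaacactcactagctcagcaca
Sost promoter, chr11:101966966-101967265, minus strand: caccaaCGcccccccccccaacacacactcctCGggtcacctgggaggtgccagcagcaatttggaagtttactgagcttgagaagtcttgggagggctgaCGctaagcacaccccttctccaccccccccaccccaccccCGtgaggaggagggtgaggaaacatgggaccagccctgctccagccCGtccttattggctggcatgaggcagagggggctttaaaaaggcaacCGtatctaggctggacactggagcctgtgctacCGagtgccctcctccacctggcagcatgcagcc
Sost peak summit, chr11:101964048-101964347, minus strand: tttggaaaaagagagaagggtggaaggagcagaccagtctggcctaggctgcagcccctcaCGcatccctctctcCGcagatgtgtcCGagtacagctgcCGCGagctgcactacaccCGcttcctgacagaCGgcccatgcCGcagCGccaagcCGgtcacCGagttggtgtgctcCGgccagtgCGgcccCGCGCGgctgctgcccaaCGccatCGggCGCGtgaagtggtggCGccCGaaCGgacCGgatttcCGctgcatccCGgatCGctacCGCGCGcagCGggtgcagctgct

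The Dhx8 promoter held 25 CpG dinucleotides, with an observed to expected CpG ratio of 1.04. Around the summit of the stronger Dhx8 peak of 230-238 the ratio was 0.62. The Dusp3 promoter held 32 (ratio 0.84), that of Mpp2 21 (0.90) and that of Tmem101 11 (0.58). The promoters of Ppy (4 CpG dinucleotides, ratio 0.18) and Sost (7, ratio 0.25) were CpG-poor against a median ratio of 0.38 over the 32851 promoters of the table. Among the printed promoters, peaks of 230-238 thus lay over CpG-rich and over CpG-poor ones. The rows of the gap under no peak in either line also had ratios above and below the median of 0.38. They were Nags (0.58), a second Mpp2 promoter (0.56), Pyy (0.29 in each of its rows) and the RefSeq promoter of Cfap97d1 (0.28). The window at the Sost summit held 31 CpG dinucleotides with a ratio of 0.92, well above the Sost promoter itself. That window starts in the intron before the last exon of Sost and ends in its coding sequence.

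In Scid.adh.2C2 there was no peak over 449807 bp, from the end of the Dhx8 peak to the start of the Lsm12 peak (chr11:101734206-102184012), while 230-238 had 17 peaks in the same sequence. These 17 peaks had fold enrichments over local background of 6.23 to 26.0 with a median of 10.1, as given by the authors' peak caller, and 11 of them reached 10-fold and 4 reached 20-fold. They covered 29986 bp, or 6.67% of the gap. Distances between neighboring peaks ran from 144 to 93357 bp with a median of 15045 bp, so the peaks were spread along the gap and not piled up at 1 place. An absent peak means that no region passed the authors' thresholds. The signal below them and the copy number of the stretch in either line were not analysed here, and the input libraries entered only through the peak calling.

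**Figure D1:**
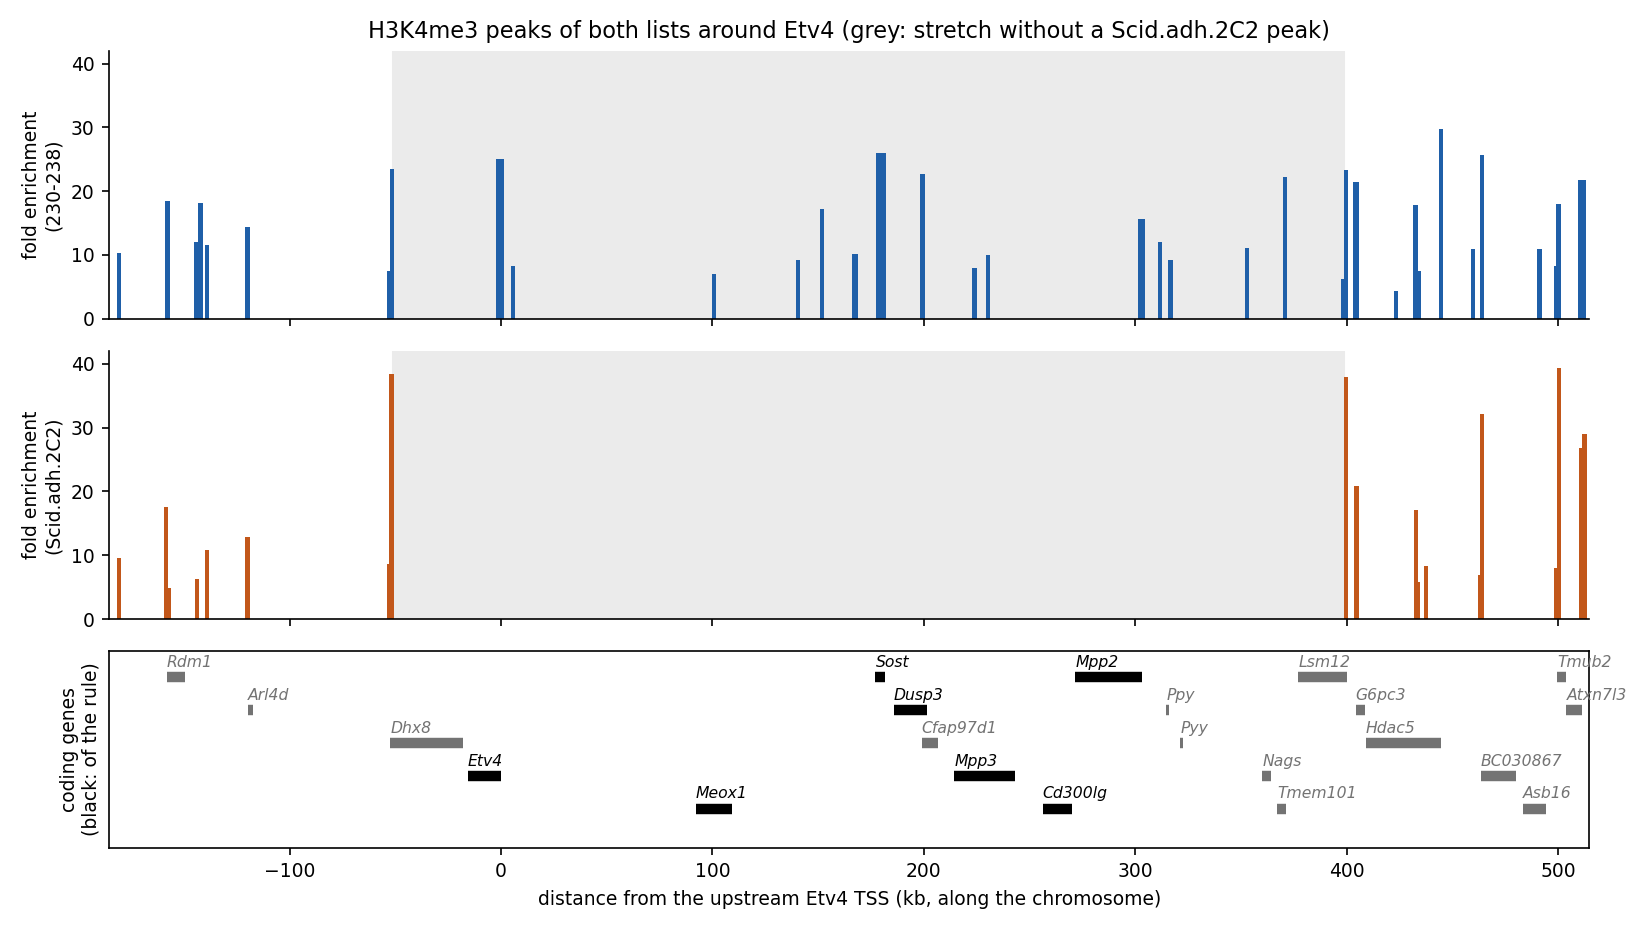
Peaks of 230-238 (top, blue) and Scid.adh.2C2 (middle, orange) by distance in kb from the upstream Etv4 start, with bar height giving the fold enrichment within each list and the lower panel giving the protein-coding genes (black, the 7 genes of the rule). In the grey gap of 449807 bp, 17 blue bars and no orange bar are seen, and bars of both colors stand on each side of it.

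Both borders of the gap were strongly marked in Scid.adh.2C2. At Dhx8 its peak was 38.4-fold enriched (rank 470 of 15513) and that of 230-238 23.5-fold (rank 3525 of 19604), with summits at the same base. At Lsm12, which encodes an LSM-domain protein, the Scid.adh.2C2 peak was 38.0-fold enriched (rank 548) and the 230-238 peak 23.3-fold (rank 3685), with summits 25 bp apart. Because the lists were called separately, fold enrichments are on different scales and only ranks or percentiles within a list can be set side by side. At both borders the peak stood higher in the Scid.adh.2C2 list than in the 230-238 list (percentiles 97.0 and 96.5 against 82.0 and 81.2).

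The gap divides the stretch into parts with different make-up. On the Dhx8 side (chr11:101600000-101734205) each line had 8 peaks, and the promoters of all 3 protein-coding genes there, Rdm1, Arl4d and Dhx8, were marked in both lines, a promoter being marked if a peak lay within 2500 bp of any of its TSSs. On the Lsm12 side (chr11:102184013-102300000) 230-238 had 12 peaks and Scid.adh.2C2 had 11, and 6 of 7 protein-coding genes were marked in each line, Asb16 in neither. In the gap between them 8 of 12 protein-coding genes were marked in 230-238 and 0 in Scid.adh.2C2. Over the whole stretch 22 of 37 peaks of 230-238 had no overlapping peak in the other line, where 39.3% of all its peaks had none, and 2 of 19 peaks of Scid.adh.2C2 had none, where 25.6% of all its peaks had none.

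The 8 genes of the gap were the genes of the stretch marked in 230-238 only: Etv4, Sost, Dusp3, Cfap97d1, Mpp3, Mpp2, Ppy and Tmem101. Of the 7 genes of the rule, 5 were marked in 230-238 and 0 in Scid.adh.2C2, and no gene of the stretch was marked in Scid.adh.2C2 only. Among all 21951 protein-coding genes, 48.2% were marked in 230-238, 45.5% in Scid.adh.2C2, 5.96% in 230-238 only and 3.28% in Scid.adh.2C2 only. Of the genes marked in 230-238, 12.4% lacked a peak in Scid.adh.2C2. For genes with a promoter peak of at least 20-fold in 230-238 this share was 7.06%. In the stretch, Etv4, Sost, Dusp3, Cfap97d1 and Tmem101 had such a peak and none in Scid.adh.2C2, with Dusp3 and Cfap97d1 sharing a peak. Dhx8, Lsm12, G6pc3, Hdac5, BC030867 and Atxn7l3 had such a peak too and were marked in both lines. These shares stand beside the counts as background, since the stretch was selected on the same contrast.

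Set beside the other gaps of the Scid.adh.2C2 list, this gap ranked high by what it held in the other line and lower by its length. Since the stretch was chosen for its 230-238-only peaks, a high rank by those peaks follows from the choice and tests nothing. Among 15492 gaps between neighboring peaks it ranked 1181 by length, 2 by the number of 230-238 peaks inside, behind a gap on chromosome 6 with 27, and 1 by the number of 20-fold peaks, tied at 4. The 1181 gaps at least as long held a median of 1 peak of 230-238, 552 held none and 25 held 10 or more. Among 775 gaps within 1.5 times its length the median was 1 and 11 held 10 or more. Only 2 of the 15492 gaps held 8 protein-coding genes marked in 230-238, this gap and chr6:48359412-48647212, and no gap held more. The 17 peaks also formed an unbroken run of 230-238-only regions, the 2nd longest of 3773 such runs, which fell to 11 regions with peaks of at least 10-fold alone.

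**Figure D2:**
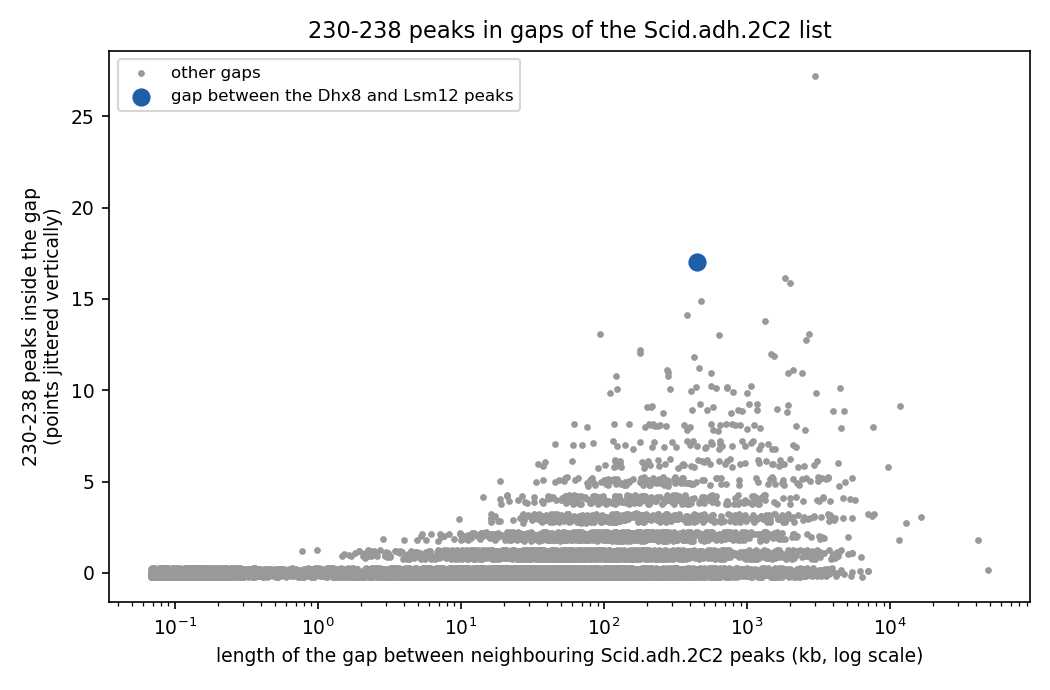
Length in kb (log scale) of every gap between neighboring Scid.adh.2C2 peaks against the number of 230-238 peaks inside it, with points moved slightly up or down for visibility. The gap between the Dhx8 and Lsm12 peaks (large blue point) holds 17, and 1 other gap, on chromosome 6, holds more, with 27.

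Of the genes named by the rule, Etv4 (ENSMUSG00000017724, chr11:101769742-101785371, minus strand) had the peak nearest to the Dhx8 border. In 230-238 it was 25.1-fold enriched (rank 2501, percentile 87.2), was 3437 bp wide (chr11:101783126-101786562) and covered 9 of the 10 annotated Etv4 TSSs. Its summit lay 26 bp from the nearest TSS, on the upstream side, and the sequence around it was CpG-rich, with a ratio of 0.93. A further 230-238 peak of 8.31-fold lay upstream (chr11:101790568-101791723), with its summit 5806 bp from the Etv4 start and at no annotated promoter. In Scid.adh.2C2 the peak nearest to an Etv4 TSS lay 37976 bp away, the distance to the Dhx8 peak from the lone internal TSS.

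Sost (ENSMUSG00000001494, chr11:101962458-101967015, minus strand) had the highest fold enrichment of the gap in 230-238, 26.0-fold (rank 1989, percentile 89.9). The peak was 4647 bp wide (chr11:101962584-101967230), the widest of the stretch and wider than 97.0% of the list, and spanned nearly the whole gene. Its summit did not lie at the TSS but 2817 bp downstream, in the last exon, at the CpG-rich window printed above. Sost is a gene of the rule, so its own mark in 230-238 reflects the choice of the stretch. Sclerostin is known as a product of osteocytes, and it was listed with other WNT antagonists and their receptors. Of the 12 genes of that list, beside 48.2% and 45.5% of all protein-coding genes in the respective lines, 4 were marked in 230-238 (Sost, Dkk3, Lrp4 and Lrp6) and 2 in Scid.adh.2C2 (Lrp5 and Lrp6), while Sostdc1, Dkk1, Dkk2, Dkk4, Sfrp1, Sfrp2 and Wif1 had no promoter peak in either line.

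Dusp3 (ENSMUSG00000003518, chr11:101971143-101987013, minus strand), also known as VHR, shared a peak with Cfap97d1, an overlapping gene on the other strand named for its cilia and flagella protein domain. The 230-238 peak was 22.6-fold enriched (rank 4178, percentile 78.7), 2296 bp wide (chr11:101983369-101985664), and covered 4 of 6 Dusp3 TSSs and 2 of 3 Cfap97d1 TSSs, so which of the 2 genes it marks cannot be told apart. The RefSeq promoter of Dusp3 lies inside the peak, and that of Cfap97d1 lies at its remaining TSS, outside the peak. Among 10 small and atypical dual-specificity phosphatases, 6 were marked in 230-238 and 5 in Scid.adh.2C2, near the shares of 48.2% and 45.5% over all protein-coding genes. Dusp3 is a gene of the rule, so its own mark reflects the choice of the stretch. Dusp23 (11.8-fold) resembled Dusp3 in having a 230-238 peak only, and Dusp19 had a peak in Scid.adh.2C2 only (23.1-fold).

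Mpp2 and Mpp3, paralogs that organize protein complexes at the plasma membrane, differed in strength. Mpp2 (ENSMUSG00000017314, chr11:102057015-102088515, minus strand) had a broad 230-238 peak of 15.6-fold (percentile 51.0, 3369 bp, chr11:102086657-102090025) over 3 of its 6 TSSs. Mpp3 (ENSMUSG00000052373, chr11:101999652-102028461, minus strand) had a weak one of 7.91-fold (percentile 13.7, 1080 bp, chr11:102008763-102009842). That Mpp3 peak lay 568 bp from an internal TSS at 102010410 and covered none of the 8 Mpp3 TSSs, and its reproducibility score of 707 was under the maximum of 1000 that the other 16 peaks of the gap and 93.9% of the list carried. A second peak in the Mpp3 gene, of 10.0-fold, lay at no annotated promoter (chr11:102015019-102016227). In the MAGUK list 6 of 8 genes were marked in 230-238 and 4 in Scid.adh.2C2, beside 48.2% and 45.5% of all protein-coding genes. Mpp2, Mpp3 and Mpp7 (28.0-fold) were marked in 230-238 only, as were 5.96% of all protein-coding genes, and Mpp4 (9.93-fold) in Scid.adh.2C2 only. Mpp2 and Mpp3 are genes of the rule, so their marks reflect the choice of the stretch. Apart from them, Mpp7 alone was marked in 230-238 only.

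Meox1 (ENSMUSG00000001493, chr11:101877510-101894374) and Cd300lg (ENSMUSG00000017309, chr11:102041509-102055620) had no promoter peak in either line. The 230-238 peak nearest to the Meox1 TSS lay 7609 bp away, in a Meox1 intron, was 7.00-fold enriched and overlapped the promoter window of the antisense gene Gm11551. For Cd300lg the nearest 230-238 peak was 25282 bp from the TSS. Beside 48.2% and 45.5% of all protein-coding genes marked in 230-238 and Scid.adh.2C2, 0 of 9 somite homeobox and partner factors, Meox1 included, had a promoter peak in either line, and of 10 CD300 genes, also on chromosome 11, Cd300lf was marked in 230-238 (25.4-fold) and Cd300a in Scid.adh.2C2 (10.3-fold). The TSSs of Meox1 and Cd300lg thus lay inside the gap without a peak of their own in 230-238, as did those of Pyy and Nags.

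The other protein-coding genes of the gap were hormone and metabolic genes and Tmem101. Tmem101, a transmembrane protein gene, had a 22.2-fold peak in 230-238 (percentile 77.0) that covered all 3 of its TSSs. Ppy, the gene of pancreatic polypeptide, had a 9.25-fold peak (percentile 22.1) with its summit 546 bp upstream of the start. Pyy, the gene of the gut hormone peptide YY, and Nags, which makes the activator of the urea cycle, were unmarked, and their nearest 230-238 peaks lay 4719 and 6867 bp away. Strong and weak peaks were thus mixed along the gap, with 20-fold peaks of 230-238 near both ends, at Etv4 and at Tmem101.

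**Figure D3:**
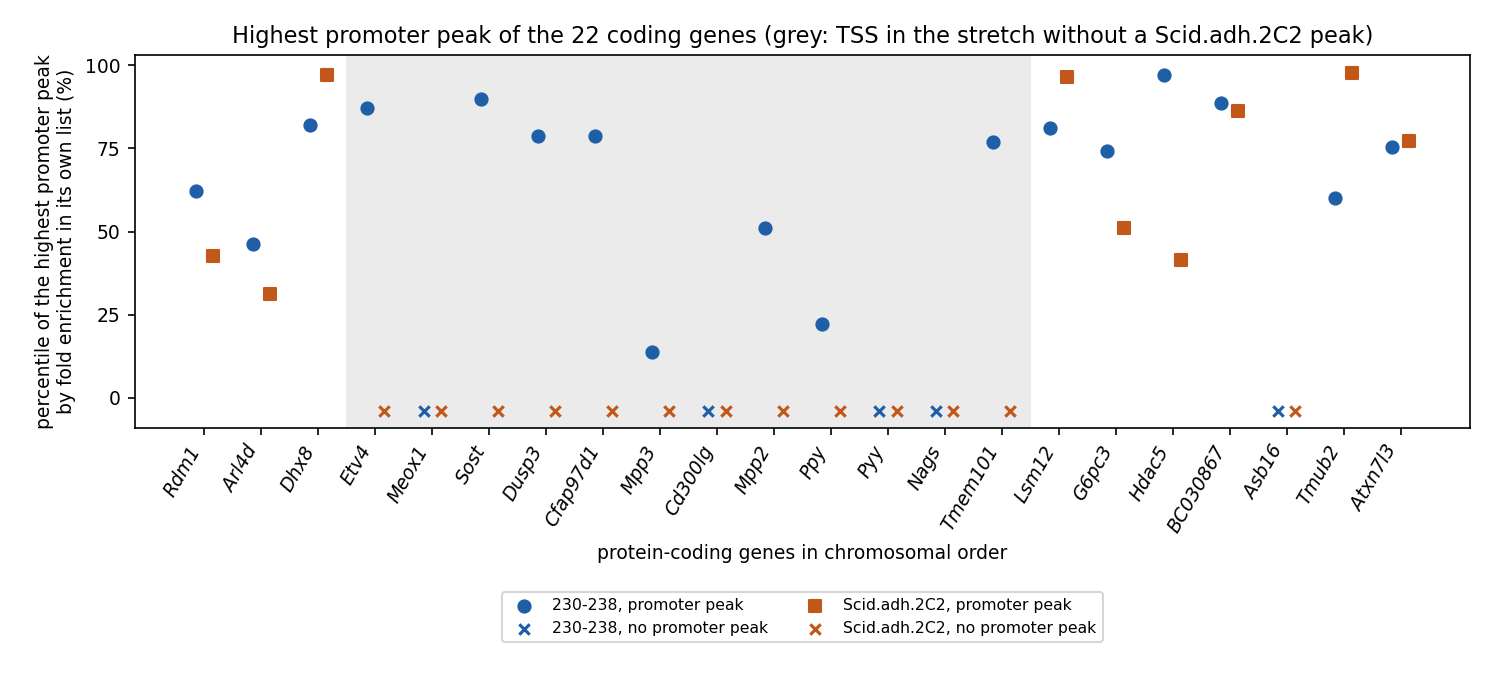
Percentile of the highest promoter peak by fold enrichment within its own list for the 22 protein-coding genes in chromosomal order, for 230-238 (blue circles) and Scid.adh.2C2 (orange squares), with crosses below 0 for genes without a promoter peak. Within the grey gap 8 of 12 genes have a circle, from percentile 13.7 at Mpp3 to 89.9 at Sost, and none has a square.

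Of the 17 peaks of the gap, 8 lay at protein-coding promoters (6.23 to 26.0-fold, median 18.9), where 64.7% of all 230-238 peaks did, and 12 at promoters of any annotated gene, where 70.3% did. Of the 8, 1 was the 6.23-fold shoulder of the Lsm12 peak. At promoters of other gene types only there were 4, with 7.00 to 17.3-fold, at Gm11551, the pseudogene Rpl27-ps2 and the antisense gene 4930417O22Rik, which had 2. The remaining 5, with 8.31 to 12.0-fold, lay at no annotated promoter. The classes overlapped: the shoulder at Lsm12, Mpp3 (7.91-fold) and Ppy (9.25-fold) were among the weaker peaks of the gap although they lay at protein-coding promoters. Over the whole 230-238 list the median was 19.3-fold at protein-coding promoters and 9.75-fold away from them. Between the Etv4 and Sost peaks there were 6 peaks, and all 6 lay away from protein-coding promoters.

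At the summits of the gap peaks the CpG ratio ran from 0.17 to 0.93 with a median of 0.30. The highest ratios were those of Etv4 (0.93), Sost (0.92), Tmem101 (0.91) and Dusp3 with Cfap97d1 (0.74), the genes whose peaks passed 20-fold. Mpp2 (0.29), Mpp3 (0.28) and Ppy (0.19) had CpG-poor summits, although the Mpp2 promoter printed above is itself CpG-rich, its summit lying in an exon 166 bp downstream of the nearest TSS. For the 22 peaks of the stretch without a partner the median was 0.35, beside 0.28 for all such peaks of 230-238, and for the 15 with a partner it was 0.59, beside 0.55. The order of the medians in the stretch was thus that of the whole list.

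**Figure D4:**
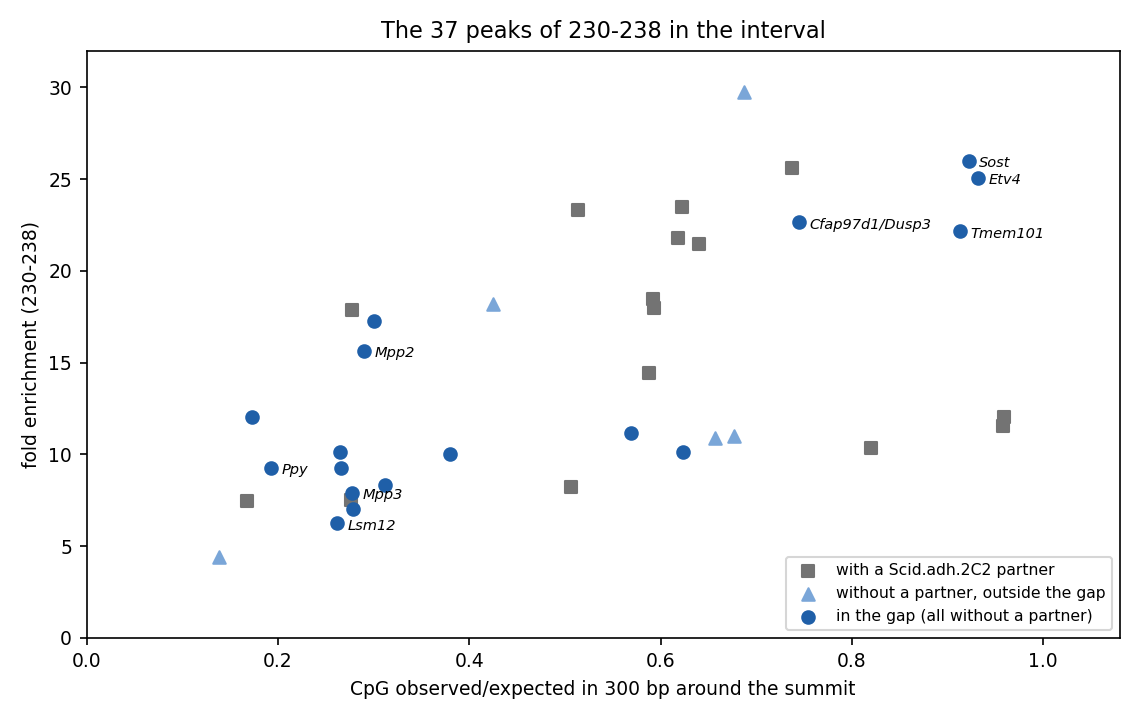
Observed to expected CpG ratio in 300 bp around the summit against fold enrichment for the 37 peaks of 230-238 in the stretch, split by whether they overlap a Scid.adh.2C2 peak. Among the gap peaks (dark blue circles), the 4 above 20-fold, at Sost, Etv4, Dusp3 with Cfap97d1 and Tmem101, have ratios from 0.74 to 0.93.

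Short motif letters were counted on both strands of the same 300-base windows, and none of the motifs contains another. Among the 17 gap peaks the E-box CAGGTG occurred in 5 windows (23.9% of all 230-238 windows), the RUNX letters TGTGGT in 5 (18.9%), the SP letters GGGCGG in 5 (20.2%), CCAAT in 4 (29.1%) and the GATA letters AGATAA in 2 (12.1%). The palindromic EBF1 motif occurred in 1, at Ppy (1.56% of all windows). The ETS letters CCGGAAG (3.76%) and the TCF letters CTTTGAT (3.42%) occurred in 0 of 17, which says only that these exact letters are not in these windows. None of the 17 peaks had a partner. Over all 230-238 peaks without a partner, E-box letters occurred in 23.7%, RUNX in 23.5%, SP in 11.4%, CCAAT in 30.7% and GATA in 14.5%. For EBF1, ETS and TCF the shares there were 2.13%, 1.78% and 4.09%.

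On the flanks, where both lines had peaks, 15 peaks of 230-238 paired with 17 of Scid.adh.2C2 in 17 overlapping pairs, with a median distance of 42 bp between summits. In 15 of 17 pairs the 230-238 peak was the wider, where this held for 64.6% of the 12492 pairs of the genome, and in 12 of 17 it had the higher percentile by fold enrichment, where this held for 56.2%. The stronger Tmub2 peaks were a pair of the opposite kind, with a percentile of 60.0 in 230-238 and 97.7 in Scid.adh.2C2. The weaker Tmub2 pair had 15.8 and 15.0. By percentile, both Dhx8 pairs, the Lsm12 pair and an Atxn7l3 pair also stood higher in Scid.adh.2C2. G6pc3, the glucose-6-phosphatase subunit found in most tissues, had percentiles of 74.2 and 50.9. At Atxn7l3, a subunit of the SAGA deubiquitinase module, 1 broad 230-238 peak of 3822 bp overlapped 2 peaks of Scid.adh.2C2. The Rdm1 peak of 230-238, of 2625 bp, did so as well. Each of these broad peaks thus counted as the wider in 2 of the pairs.

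Hdac5, which encodes a class IIa histone deacetylase, lay outside the gap but differed between the lines by promoter. Its upstream promoter carried the strongest 230-238 peak of the stretch, 29.8-fold (rank 579, percentile 97.0, chr11:102228891-102230921), without a partner in Scid.adh.2C2. Its internal promoter was marked in both lines, at 17.9-fold in 230-238 (percentile 59.5) and 17.0-fold in Scid.adh.2C2 (percentile 41.5). Of 18 Hdac5 TSSs, 9 lay inside a 230-238 peak and 2 inside a Scid.adh.2C2 peak, so the gene counted as marked in both lines although its upstream start was marked in 230-238 only.

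At the low end of the stretch, peaks lay at the snRNA genes Gm26316, Gm23849, Gm24950 and Gm23971, whose sequences recur in the genome. The share of 32-base words found once in the genome was 38.8% and 41.3% for the 230-238 peaks at Gm24950 and Gm23971 and 28.5% and 34.3% for those of Scid.adh.2C2, so these peaks are uncertain. A further 230-238 peak within reach of both genes, of 18.2-fold and without a partner, had a higher share of 89.8%. Within the gap this share was 97.7% or higher except at the Lsm12 shoulder, where it was 89.3%. The edges of the stretch do not cut through a peak. The nearest 230-238 peaks outside it had 12.2-fold on the low side and 15.3-fold on the high side, and the outermost ones inside it 10.4 and 21.8-fold. For Scid.adh.2C2 these were 13.0 and 35.0-fold outside and 9.58 and 28.9-fold inside.

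Etv4 was looked at together with its group, since Etv1, Etv4 and Etv5 and the feedback inhibitors Dusp4 to Dusp6, Spry and Spred are well-known targets of ERK signaling. Of 16 PEA3 group and ERK target genes, 15 were marked in 230-238 and 6 in Scid.adh.2C2, beside 48.2% and 45.5% of all protein-coding genes. Of the 16, 9 were marked in 230-238 only and 0 in Scid.adh.2C2 only, beside 5.96% and 3.28% of all protein-coding genes. Fosl1 was marked in neither line. Without Etv4 the count marked in 230-238 only was 8 of 15. All 3 PEA3 genes were among them, with Etv1 at 12.5-fold, Etv4 at 25.1-fold and Etv5 at 22.4-fold. So were the Sprouty genes Spry1 (25.0-fold), Spry2 (27.8-fold) and Spry4 (25.5-fold), the related inhibitors Spred1 (18.8-fold) and Spred2 (24.1-fold), and the ERK phosphatase Dusp4 (23.9-fold).

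The genes of that list marked in both lines were the phosphatases Dusp5 and Dusp6 and the immediate-early or early response genes Egr1, Fos, Ier3 and Phlda1. Their highest promoter peaks were 11.2 to 30.0-fold in 230-238 and 20.1 to 25.8-fold in Scid.adh.2C2. The list was put together with earlier results of these lists known, and no expression was measured here, so the counts describe the promoter mark alone beside the 5.96% of all protein-coding genes marked in 230-238 only.

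**Figure D5:**
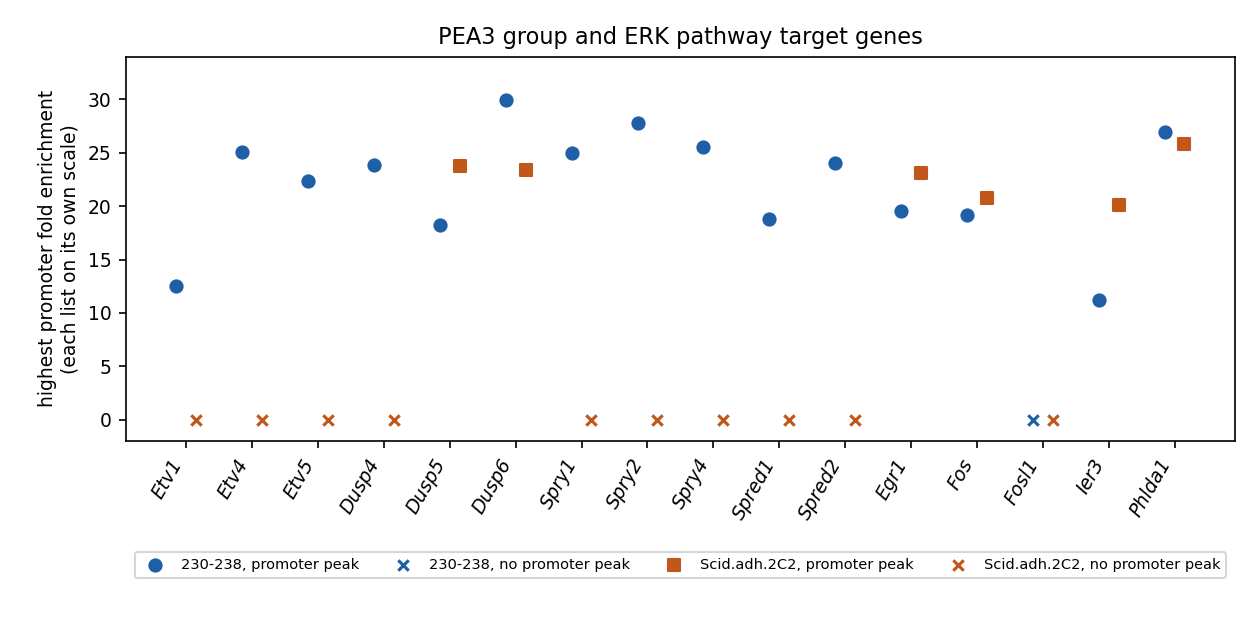
Highest promoter fold enrichment of the 16 PEA3 group and ERK target genes, each list on its own scale, for 230-238 (blue circles) and Scid.adh.2C2 (orange squares), with crosses for genes without a promoter peak. The 9 genes with a circle and an orange cross run from 12.5-fold at Etv1 to 27.8-fold at Spry2.

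The labels of the lines were checked against lineage markers. Over all protein-coding genes 48.2% were marked in 230-238 and 45.5% in Scid.adh.2C2. Of 9 B-cell progenitor markers 8, all but Rag1, were marked in 230-238 and 2, Vpreb1 and Rag1, in Scid.adh.2C2. Rag1 was thus marked in Scid.adh.2C2 only, at 16.5-fold. Of 9 T-cell progenitor markers all 9 were marked in Scid.adh.2C2 and 3, Cd3d, Tcf7 and Lck, in 230-238. Of 7 myeloid and erythroid markers Klf1 was marked, in both lines.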

How the data were processed

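H3K4me3 ChIP-seq peak lists of 230-238 and Scid.adh.2C2 were used, 1 combined list per line from 2 ChIP libraries and 1 input library. Per the study's methods and the submitters' processing notes, the authors trimmed reads with Trim Galore 0.6.7, mapped them to mm10 (GRCm38) with Bowtie2 2.4.4 and called narrow peaks against input with MACS2 2.2.7.1 at a q-value of 0.05, followed by a reproducibility filter (IDR) at 0.05. The deposited values per peak are an IDR score of at most 1000, the fold enrichment over local background (a ratio), −log10 p-values and −log10 q-values. Read counts were not used here, so no depth, interval or test between replicates was possible.

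From these lists, peaks overlapping the stretch were taken, a partner was any peak of the other list overlapping by 1 bp, and ranks and percentiles were computed within a list. Promoters were 2500 bp around every TSS of the 21951 protein-coding genes of GENCODE M21. CpG ratios, motif letters and unique 32-base words came from the GRCm38.p6 sequence (Python 3.11.15, pandas 2.3.3, numpy 2.4.6). Counting of marked promoters and runs was tested on simulated peaks. The genes named were the 7 of the rule, every other protein-coding gene of the stretch, the gene lists given and the lineage markers. Members and lists were chosen with earlier results of these data known. Alternatives changed the peak threshold, list length, promoter window, TSS choice, overlap and merging.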

Additional observations from a re-analysis of the deposited data

How the results depend on the processing

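The counts were recomputed under stricter peak thresholds, other promoter windows and other overlap rules. With peaks of at least 10-fold alone, 11 of the 19 Scid.adh.2C2 peaks and 27 of the 37 of 230-238 were left, and the run of 230-238-only regions fell to 11 from 17. All other counts stayed within 1.5 times their main value: 16 to 22 peaks of 230-238 without a partner, 4 or 5 genes of the rule marked in 230-238, and 6 to 9 genes of the stretch marked in 230-238 only. The count of genes of the rule marked in Scid.adh.2C2 was 0 in each setting tried. In a further setting the 230-238 list was cut by p-value to the length of the Scid.adh.2C2 list. It left 27 of its 37 peaks, of which 16 lacked a partner. In that setting 6 genes were marked in 230-238 only, and the run held 12 regions in place of 17. Mpp3 lost its mark when only the most upstream TSS was used and had 10.0-fold with a 5000 bp window, and Sost lost its mark when the summit had to lie in the window. Without peaks under 90% unique 32-base words, a setting chosen after seeing the data, 31 peaks of 230-238 and 14 of Scid.adh.2C2 were left. No paired analysis was possible because each list combines both replicates of its line and its columns carry no replicate, and leaving out a replicate could not be run for the same reason. Peak lists show neither signal below the calling threshold nor copy number.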
